A study of Mus musculus with 2 samples.

Results

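Neutrophils were picked from 2 scRNA-seq libraries of mouse liver non-parenchymal cells (NPCs), and 193 of the 13603 cells kept met the rule. A cell was taken as a neutrophil when S100a8 and S100a9 together reached 100 or more UMIs (unique molecular identifiers, each standing for 1 captured transcript) per 10000 and when it held at least 2 UMIs of Csf3r, Cxcr2, Retnlg, Mmp8, Camp and Ngp. At most 1 UMI of Cd79a and Cd3e and under 25 UMIs per 10000 of Kdr, Ptprb and Flt4 were allowed, which kept lymphocytes and endothelium out. These genes chose the cells, so their levels describe the choice. The library labelled Q came from the liver of 1 C57BL/6 male mouse in the quiescent state (normal), which received olive oil. The library labelled F came from 1 C57BL/6 male mouse with CCl4-mediated fibrosis, injected with 15% CCl4 in oil at 0.6 µl per g of body weight. Both mice were 8 weeks old, injections were given 2 times a week for 6 weeks, and cells were collected 48 h after the last injection. Since each condition was 1 mouse and 1 library, the conditions could not be tested against each other, every interval below covers counting error only, and mouse, library and treatment cannot be told apart.

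Neutrophils are short-lived granulocytes made in bone marrow from dividing precursors. Granule proteins are produced in sequence as the cells mature, the azurophil proteins (myeloperoxidase, elastase) first and the specific granule proteins (cathelicidin, lactoferrin, Ngp) next. Gelatinase granule proteins such as Mmp9 come last, after which the cells gain Cxcr2 and enter blood. Circulating neutrophils hold large amounts of the calcium-binding alarmins S100A8 and S100A9 and little RNA. They enter injured liver through sinusoids, drawn by CXC chemokines, complement and lipid mediators, and can release cytokines and chemokines of their own.

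The 6 neutrophil markers (S100a8, S100a9, Csf3r, Cxcr2, Retnlg and Il1r2) summed to 690.1 UMIs per 10000 in normal and 583 in fibrosis neutrophils, against 1.91 and 1.09 in the other cells of each library. All but Il1r2 belong to the rule, so this sum was fixed by the choice of cells and is no check of the label. Il1r2 stood at 6.35 and 8.39 in mature cells and at 0.0208 and 0.0567 in T/NK cells. Of 7 markers of basophils, eosinophils and mast cells, 6 were at 0 in the neutrophils of both libraries. No barcode of a neutrophil occurred in both libraries, although 15 barcodes did among all cells as deposited. RNA of other liver cells was also read in the neutrophils, as it was in the T/NK cells of the same libraries. Hepatocyte markers (7 of 7 detected) stood at 277 and 28.4 UMIs per 10000 in normal and fibrosis neutrophils and at 202 and 22.4 in T/NK cells. Stellate cell and fibroblast markers stood at 0.793 and 15.5 in neutrophils and at 2.39 and 30.9 in T/NK cells. Endothelial markers stood at 10.3 and 19.6 against 8.44 and 14.8, and cholangiocyte markers at 1.53 and 7.27 against 10.2 and 4.89. Macrophage markers (8 of 8 detected) stood at 12.6 and 29.0 in neutrophils and at 6.89 and 28.4 in T/NK cells. One normal mature cell, of 8094 UMIs, held 191 UMIs of them, or 236 per 10000, above the median of 208 in normal macrophages, and it also held 93 UMIs of S100a8 and 109 of S100a9. The next highest normal mature cell was at 48.9, and without that cell the normal mature cells were at 8.16 in place of 14.0. The level in T/NK cells is therefore given beside the results that such RNA touches.

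Neutrophils made up 1.62% of normal cells (121 of 7471, 95% exact binomial interval 1.35 to 1.93%) and 1.17% of fibrosis cells (72 of 6132, 0.920 to 1.48%). The intervals overlap, and the shares depended on the S100 limit. With S100a8 and S100a9 at 50 to 100 per 10000, 17 normal and 28 fibrosis cells lay just outside the rule, and at 100 to 150 there were 11 and 8 just inside. Those just outside had 12.0 and 9.33 UMIs per 10000 of Csf3r, the G-CSF receptor, and those just inside 25.04 and 19.1. Il1b stood at 35.9 and 39.4 just outside and at 102 and 49.6 just inside. With the limit lowered to 20 per 10000, an alternative chosen after the data were seen, the shares were 2.04% and 1.96%.

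Neutrophils held few UMIs per cell. The median was 2675 in the normal library (lowest 1419, highest 20825) and 1954 in the fibrosis library (1372 to 5583), with a median of 1329 and 1188 genes detected. T/NK cells had medians of 3984 and 3292 UMIs. Mitochondrial genes took a median of 3.35% and 1.92% of the neutrophils' UMIs. In total the neutrophils held 365696 UMIs (normal) and 162283 (fibrosis), so a gene at 1 UMI per 10000 rests on few molecules.

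Genes that set neutrophils apart from all other cells were ranked by the smaller of their ratios in the 2 libraries. Retnlg, a resistin-like secreted protein and part of the rule, led with 33.0 and 44.2 UMIs per 10000 in normal and fibrosis neutrophils, 527 and 701 times the level in other cells. S100a8 followed at 267 and 207 (398 and 786 times), and S100a9 at 352 and 299.5 (395 and 792 times). Several leading genes were not part of the rule. Stfa2l1, a stefin-type inhibitor of cysteine proteases, stood at 2.22 and 2.03 (245 and 649 times). Asprv1, an aspartic protease, stood at 3.36 and 2.77 (215 and 322 times). Il1f9, the IL-36 gamma cytokine, stood at 2.27 and 3.94 (157 and 179.8 times). Acod1, which makes itaconate, was at 4.46 and 6.78 in neutrophils. It was at 0.0711 and 0.0911 in the cells taken as monocytes, which also held dendritic cell markers.

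In the normal library neutrophils carried 0.886% of all UMIs, yet 49.1% of those of Il1b and 26.8% of Cxcl2, a cytokine and a chemokine that were not in the rule. For the rule genes Retnlg and Cxcr2 the choice of cells sets the shares, which were 82.5% and 61.7%. In the fibrosis library they carried 0.317% of all UMIs. Their part there was 17.5% for Il1b and 5.08% for Cxcl2, and 69.0% for Retnlg and 40.7% for Cxcr2. Cxcl2 had 2590 UMIs in all kept normal cells and 17001 in all kept fibrosis cells, so most of its fibrosis transcripts lay in other cells.

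Immature and mature neutrophils were separated by specific granule genes. Cells with at least 20 UMIs per 10000 of Camp, Ngp and Ltf (and at least 3 such UMIs) were called immature, and the rest mature when they held a UMI of Cxcr2 or Retnlg. There were 6 immature, 113 mature and 2 unstaged cells in the normal library and 10, 61 and 1 in the fibrosis library. Immature cells were 4.96% of normal neutrophils (interval 1.84 to 10.5%) and 13.9% of fibrosis neutrophils (6.87 to 24.1%), and these intervals overlap. No UMI of the 3 genes was found in 107 of 121 and 58 of 72 cells, and 1 cell in each library fell between 10 and 40 per 10000. Immature cells held more RNA, with medians of 5676 and 4037 UMIs against 2666 and 1914 in mature cells.

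**Figure D1:**
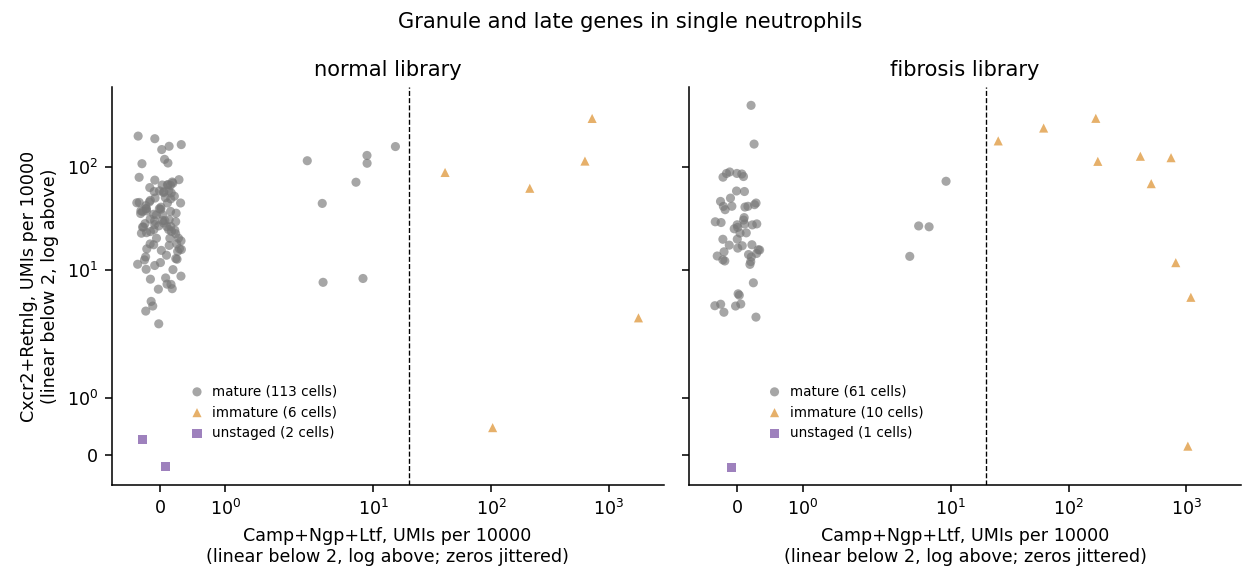
Each point is 1 neutrophil of the normal (left) or fibrosis (right) library, with Camp+Ngp+Ltf on the horizontal and Cxcr2+Retnlg on the vertical axis, both in UMIs per 10000 (linear below 2, log above, zeros jittered). The dashed line marks 20 per 10000, which separates the 6 and 10 immature cells (triangles) from the 113 and 61 mature cells (circles), with 2 and 1 unstaged cells as squares.

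Among the immature cells, granule transcripts spanned a wide range. In the normal library the 6 cells held 40.8, 103, 213, 626, 720.1 and 1780 UMIs per 10000 of Camp, Ngp and Ltf together. In the fibrosis library the 10 cells held 25.3, 61.5, 170.2, 177, 406, 502, 739.6, 811, 1027 and 1089. One normal cell stood apart. It held 20825 UMIs and 4891 genes, against 8094 UMIs in the next deepest normal neutrophil, and its doublet score of 0.240 was above the 95th percentile of the library (0.158). It carried all 306 Mpo and all 368 Elane UMIs of the normal neutrophils and 375 of their 376 Prtn3 UMIs, the peroxidase and proteases of azurophil granules. It also held 203 UMIs of Camp, 12 of Ngp and 0 of Ltf, the lactoferrin gene. The fibrosis neutrophils together held 1 UMI of Mpo and 0 of Elane and Prtn3. Levels of normal immature cells are therefore given without this cell, which leaves 5 cells and 22866 UMIs, and counts of genes with and without it, the latter chosen after the data were seen.

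Specific granule genes were, by the choice of cells, higher in the immature stage, and genes not used for the split moved with them. Ngp stood at 281 and 283 UMIs per 10000 in normal and fibrosis immature cells and at 0.629 and 0.163 in mature cells. Camp, which encodes cathelicidin, had 341 and 187 in immature cells and no UMI in the mature cells of either library. Chil3, a chitinase-like lectin not used in the rule, stood at 89.7 and 72.6 against 0.0314 and 0.163. Lcn2, lipocalin 2, which binds bacterial siderophores, was at 109 and 88.9 against 8.74 and 7.496. Cd177, a surface antigen of neutrophils, was at 16.6 and 12.5 against 0.503 and 0.0815. Ly6g, the antigen used to sort mouse neutrophils, was at 3.06 and 8.51 against 0.566 and 0.244. Camp, Ngp and Ltf set the stages, so their calls were fixed. Of the other 7 genes of the specific granule list, 6 were past 2-fold higher in immature cells of each library, with or without the deepest cell, all but Hp. The share over all genes was 19.2% in normal cells (9.53% without the deepest cell) and 8.66% in fibrosis cells.

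**Figure D2:**
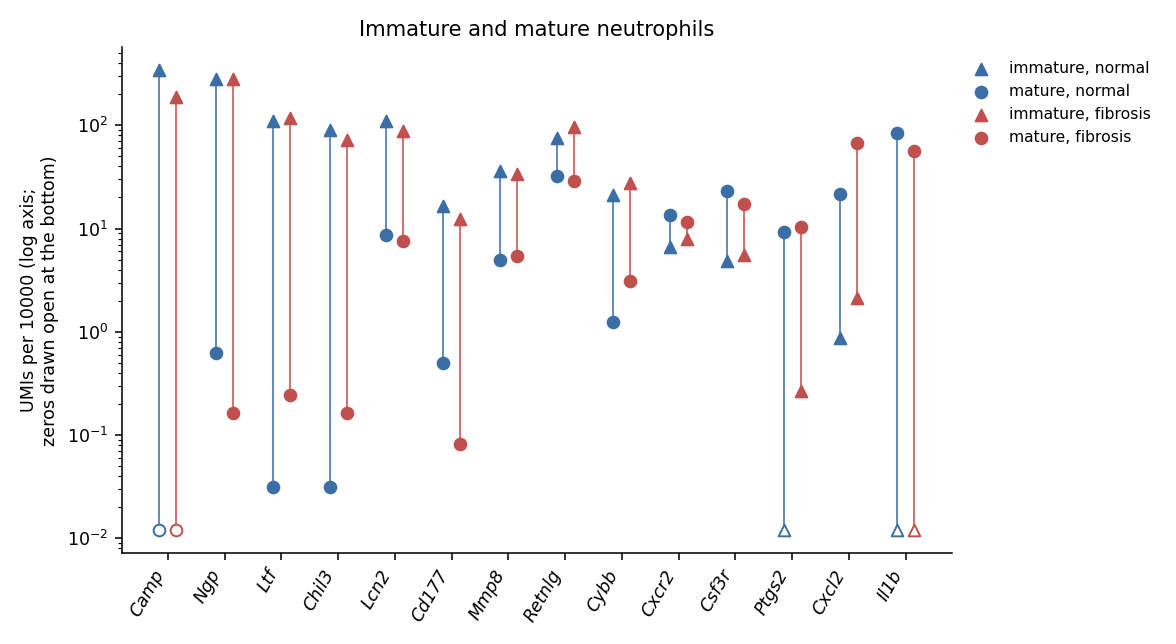
Levels of 14 genes in UMIs per 10000 (log axis) in immature (triangles) and mature (circles) neutrophils of the normal (blue) and fibrosis (red) library, the normal immature cells without the deepest cell and zeros drawn open at the bottom. Lines join the stages of a library, with Camp and Ngp far higher in immature cells and Cxcl2 and Il1b far higher in mature cells.

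Across all genes that reached 1 UMI per 10000 in one of the stages, 453 of 2355 (19.2%) were past 2-fold higher and 448 (19%) past 2-fold lower in the 6 normal immature cells, with a 95% interval that excluded 1. Without the deepest cell these were 208 (9.53%) and 175 (8.02%) of 2182. In fibrosis these were 221 (8.66%) and 282 (11.1%) of 2552. The cells were staged on their own RNA, so these ratios describe the split. Of the NADPH oxidase list, the subunits of the respiratory burst enzyme, 3 of 7 genes were higher in immature cells of each library, also without the deepest cell. Cybb, the gp91phox subunit, stood at 21.0 and 27.9 UMIs per 10000 in normal and fibrosis immature cells and at 1.26 and 3.10 in mature cells. Cebpe, the transcription factor needed for specific granule production, had 3.06 and 1.86 against 0.0629 and 0.0815. Of cell cycle genes over the level, 4 of 9 were higher in fibrosis immature cells. In normal cells these were 9 of 10 with the deepest cell and 6 of 7 without it, where Mcm3 went from 12 to 0 UMIs and Pclaf from 5 to 0. Mki67, the proliferation marker, had 5 and 7 UMIs in 5 normal and 10 fibrosis immature cells, each time in 1 cell, and the deepest normal cell held 1 more. Fpr2, a receptor for formylated peptides, was at 6.56 and 14.9 in immature and 2.99 and 3.18 in mature cells.

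Mature cells, in turn, held most of the cytokine transcripts. Of the cytokine and chemokine list, 0 genes were past 2-fold higher in immature cells, and 10 of 14 over the level were lower in fibrosis. In normal immature cells 9 of 10 were lower with the deepest cell and 5 of 10 without it. The share of all genes lower, beside which this count and those of the next lists stand, was 11.1% in fibrosis and 19% in normal immature cells, or 8.02% without the deepest cell. Il1b, which encodes the inflammatory cytokine IL-1β, had no UMI in the 6 normal and 10 fibrosis immature cells, and a limit of 3 counts puts them at most at 0.00816 and 0.0141 of the mature level. Without the deepest normal cell, which held none, the normal limit is 0.0156. Cxcl2, a ligand of Cxcr2, stood at 0.875 and 2.13 UMIs per 10000 in normal and fibrosis immature and 21.7 and 67.5 in mature cells. Ptgs2, the inducible cyclooxygenase, had 0 and 1 UMIs in immature and 292 and 127 in mature cells of the normal and fibrosis library. Of immediate early genes over the level, 14 of 19 were lower in fibrosis immature cells, and 17 of 17 in normal ones with the deepest cell but 10 of 17 without it. Dusp1, a MAP kinase phosphatase, was at 2.19 and 21.0 against 45.9 and 79.8. Of the 13 late maturation genes other than Cxcr2 and Retnlg, which served to call mature cells, 8 were lower in fibrosis and 13 in normal immature cells, or 9 without the deepest cell. Csf3r stood at 4.81 and 5.59 against 23.3 and 17.4. Retnlg was at 75.7 and 95.8 in immature and 32.5 and 29.1 in mature cells.

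Immature cells of the 2 libraries were then set side by side, again without the deepest cell. The ratio of fibrosis over normal was 1.01 (0.914 to 1.12) for Ngp and 1.07 (0.915 to 1.25) for Ltf. Camp had a ratio of 0.550 (0.496 to 0.610), and Retnlg one of 1.27 (1.05 to 1.53). Dusp1 was higher in fibrosis, on 5 and 79 UMIs, with a ratio of 9.61 (3.95 to 30.4). With 5 and 10 cells, such ratios can turn on single cells. Over all neutrophils, where the shares of immature cells differed, Ngp stood at 18.4 and 65.8 and Ltf at 6.95 and 27.6, while in mature cells alone, where the stage limit caps Ngp, it had 20 and 2 UMIs, a ratio of 0.259 (0.0294 to 1.07).

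Normal and fibrosis neutrophils were compared mainly within the mature cells, 113 with 318034 UMIs against 61 with 122734. Of 2271 genes that reached 1 UMI per 10000 in one of the libraries, 439 (19.3%) were past 2-fold higher and 231 (10.2%) past 2-fold lower in fibrosis, with an interval that excluded 1. The median ratio was 1.20. Fibrosis cells were shallower, and on the scale of UMIs per cell the median ratio was 0.856, with 200 genes (8.81%) higher and 424 (18.7%) lower, so that the share of higher genes among those past 2-fold went from 65.5% to 32.1%. Without the 3 cells of each library richest in a gene, 333 were higher and 308 lower, a share of 52.0%. Of the 32 listed genes past 2-fold higher in mature cells, 14 were so per cell too, as were 6 of the 6 lower ones. In all neutrophils together, 352 of 2192 genes (16.1%) were higher and 243 (11.1%) lower. Levels are set below against 3 times those of T/NK cells in the library where the neutrophils held more, which a gene can pass through its higher library alone, so passing it describes a level and is no support for a difference. Of 388 such genes of mature cells, 36 (9.28%) were higher and 20 (5.15%) lower. With the mean of both libraries held to that limit these were 25 (7.14%) and 16 (4.57%) of 350, and with each library held to it 17 and 9 of 287. In all neutrophils, 36 (9.76%) were higher and 19 (5.15%) lower of 369 genes over it in the higher library. These limits were chosen after the data were seen.

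**Figure D3:**
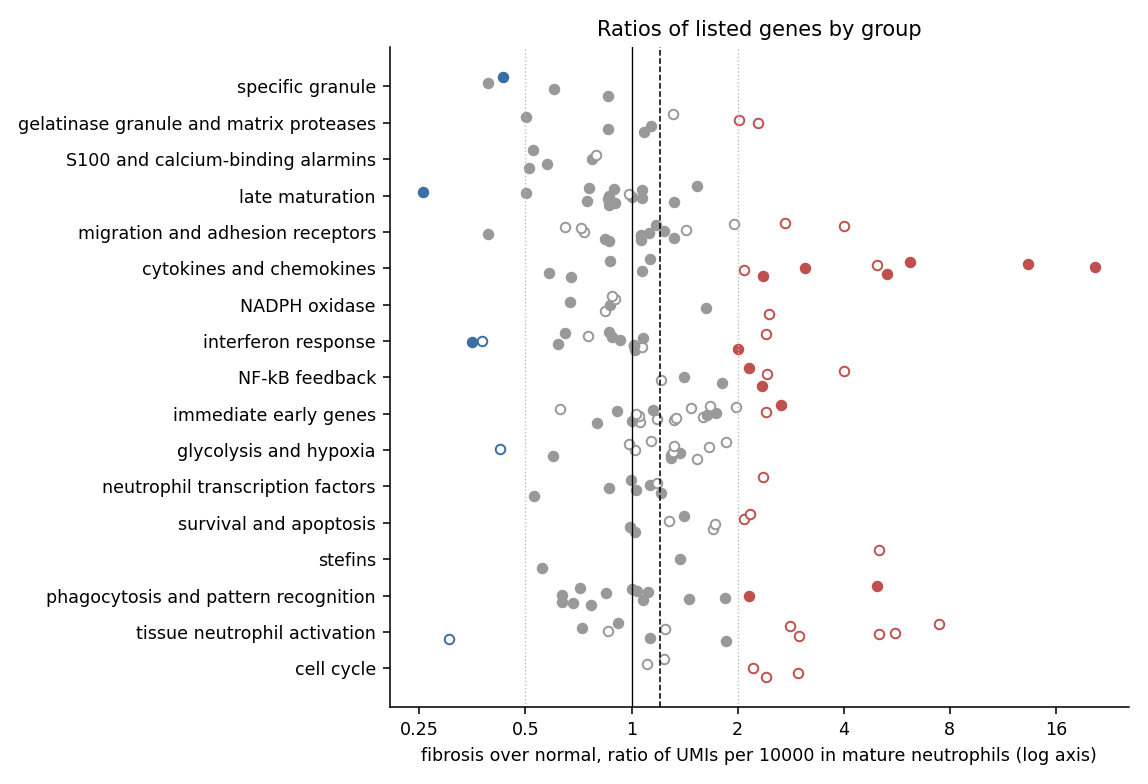
Each point is a listed gene over the level in mature neutrophils, by list and by the ratio of fibrosis over normal (log axis). Red and blue mark genes past 2-fold (dotted lines) higher and lower, filled points a level at least 3 times that of T/NK cells, and the dashed line the median of all genes, 1.20, with Cxcl3 drawn at 20.7, its value with normal cells at 3 counts. Of 13 cytokine and chemokine genes, 8 are red, and 0 of the 5 S100 genes are coloured. Of all genes, 19.3% were higher and 10.2% lower.

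Of the cytokine and chemokine list, 8 of 13 genes over the level were higher in fibrosis per 10000 UMIs, against 19.3% of all genes. On that scale 0 were lower, against 10.2%, and the median ratio was 2.37 against 1.20 over all genes. Per cell 6 of the 8, all but Il1rn and Tgfb1, stayed past 2-fold higher, where 8.81% of all genes were higher. Il1b, given below, was past 2-fold lower per cell, where 18.7% of all genes were lower. Of the 8, 6 exceeded 3 times the T/NK level (Il1rn, Tnf, Cxcl2, Cxcl3, Ccl3 and Ccl4), where 9.28% of genes were higher. Of these 6, all but Ccl4 also exceeded it as the mean of both libraries, and Il1rn and Cxcl2 in each library. Tgfb1 and Cxcl10 did not exceed it, both at 2.04 UMIs per 10000 in fibrosis neutrophils against 1.74 and 1.62 in T/NK cells. Promoter sequence is shown for 4 of these chemokines, chosen after their values were seen, because such genes are known targets of NF-kB. The windows run from 200 to 31 bases before the RefSeq start (GRCm38.p6), 5′ to 3′ on the strand of the gene, and capitals mark matches to GGGNNNTTCC on either strand. They lie at chr5:90903699-90903868 (plus strand) for Cxcl2, chr5:90785901-90786070 (plus) for Cxcl3, chr5:92348920-92349089 (minus) for Cxcl10 and chr11:83649409-83649578 (minus) for Ccl3.
Cxcl2: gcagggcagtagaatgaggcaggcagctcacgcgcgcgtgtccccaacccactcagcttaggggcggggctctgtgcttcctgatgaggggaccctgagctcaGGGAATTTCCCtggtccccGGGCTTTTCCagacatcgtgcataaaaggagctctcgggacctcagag
Cxcl3: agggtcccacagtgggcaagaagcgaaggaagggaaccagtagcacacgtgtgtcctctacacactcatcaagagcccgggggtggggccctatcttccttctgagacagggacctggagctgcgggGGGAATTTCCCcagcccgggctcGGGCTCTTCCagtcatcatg
Cxcl10: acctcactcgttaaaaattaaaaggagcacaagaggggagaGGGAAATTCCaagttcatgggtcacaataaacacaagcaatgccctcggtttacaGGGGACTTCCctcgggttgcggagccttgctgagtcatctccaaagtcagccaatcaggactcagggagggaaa
Ccl3: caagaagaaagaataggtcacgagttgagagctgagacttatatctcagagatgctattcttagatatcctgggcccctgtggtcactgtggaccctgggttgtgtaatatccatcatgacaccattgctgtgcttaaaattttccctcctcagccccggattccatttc
In Cxcl2 and Cxcl3 a match overlaps one on the opposite strand, 97 and 73 bases before the start, and each window holds a further one. Cxcl10 has a pair of matches, and Ccl3 has none in this window. The motif was found for 7 of 18 cytokine and chemokine genes with a sequence (38.9%), for 3 of 10 of the NF-kB feedback list, for 3 of 15 late maturation genes, for 0 of 6 S100 and 0 of 8 specific granule genes and for 966 of 27025 genes in all (3.57%). The 7 were Cxcl2, Cxcl3, Cxcl10, Il1rn, Csf1, Cxcl1 and Il6, of which Csf1, Cxcl1 and Il6 were not among the genes higher in fibrosis. The 3 of the feedback list were Nfkbie, Tnfaip3 and Tnip1, of which only Tnfaip3 was higher in fibrosis mature cells. A match describes the letters and not a bound site.

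Cxcl2 (chr5:90903871-90905938, GRCm38), which attracts neutrophils through Cxcr2, stood at 21.7 (20.1 to 23.4) UMIs per 10000 in normal and 67.5 (63.0 to 72.2) in fibrosis mature cells. The ratio was 3.11 (2.80 to 3.44), or 2.59 relative to the median gene and 2.22 (2.004 to 2.46) per cell. Single cells had medians of 9.60 and 26.5 and reached 125 and 458, so the libraries overlapped widely. After thinning each cell to 1000 UMIs, Cxcl2 was found in 59.3% (49.7 to 68.4%) of normal and 73.8% (60.9 to 84.2%) of fibrosis cells, against 70.8% and 80.3% without thinning. T/NK cells also held more in fibrosis, at 0.134 and 2.11 UMIs per 10000 and in 0.690% and 12.99% of thinned cells. Monocytes had 0.883 and 4.34 and macrophages 1.76 and 4.82, both below the neutrophils.

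Ccl3 and Ccl4, neighbouring genes that encode the macrophage inflammatory proteins, were higher too, and 1 cell held much of the difference. Ccl3 stood at 1.07 (0.740 to 1.49) in normal and 14.3 (12.2 to 16.5) in fibrosis cells, a ratio of 13.3 (9.20 to 19.9). Ccl4 stood at 4.50 (3.79 to 5.30) and 27.8 (24.9 to 30.9), a ratio of 6.18 (5.07 to 7.57). One fibrosis cell of 2685 UMIs held 63 of the 175 Ccl3 UMIs and 177 of the 341 Ccl4 UMIs, with 114 UMIs of Cxcl2, 54 of Spp1 and none of Cxcr2. Without it the ratios were 8.73 (5.90 to 13.2) for Ccl3, 3.04 (2.41 to 3.83) for Ccl4 and 2.74 (2.46 to 3.04) for Cxcl2. T/NK cells are known to make both genes (Ccl4 5.99 and 5.43), so B cells stand beside them, with Ccl3 at 0.306 and 1.12 and Ccl4 at 0.434 and 1.37. Thinned shares of neutrophils with a UMI were 9.74% and 27.9% for Ccl3 (14.2% and 36.1% without thinning) and 23.0% and 42.6% for Ccl4 (34.5% and 49.2%). Thinned T/NK cells had Ccl3 in 8.00% and 15.6% and Ccl4 in 21.2% and 25.7%. The shares of normal neutrophils lay close to those of normal T/NK cells, which for these 2 genes are not a background level.

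**Figure D4:**
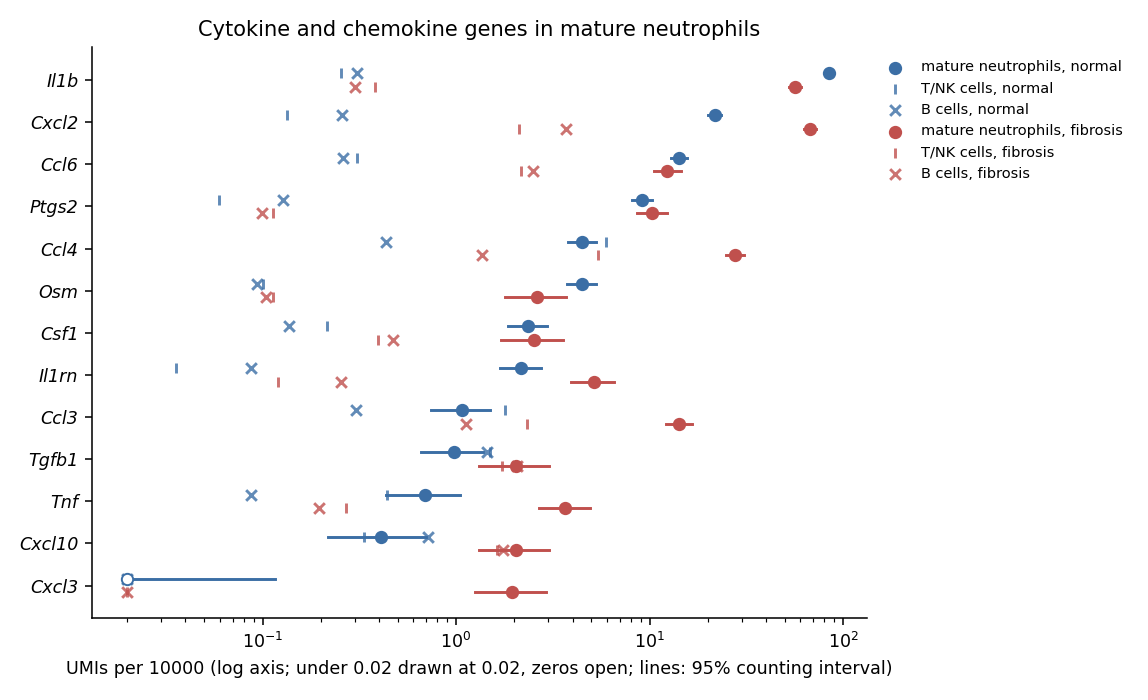
Levels in UMIs per 10000 (log axis) of 13 cytokine genes in mature neutrophils of the normal (blue) and fibrosis (red) library as dots with 95% counting intervals, beside T/NK cells (ticks) and B cells (crosses). Values under 0.02 are drawn at 0.02 and zeros open, and Il1b and Cxcl2 lie far above the T/NK and B cells in both libraries.

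Less abundant members were higher on few molecules. Cxcl3, another Cxcr2 ligand, had 0 and 24 UMIs in normal and fibrosis cells, 14 of them in 1 of 6 cells. With normal cells set at 3 counts over the group the ratio is 20.7, which leaves out the counting error of the fibrosis cells. The exact interval of the ratio starts at 15.6, at 11.2 per cell and at 1.76 without the 3 richest cells. Tnf stood at 0.692 and 3.67 UMIs per 10000, a ratio of 5.30 (3.12 to 9.27), with 31.1% of its fibrosis UMIs in 1 cell. Il1rn, which encodes the antagonist of the IL-1 receptor, stood at 2.17 and 5.13, a ratio of 2.37 (1.65 to 3.38). It was 1.72 without the 3 cells of each library richest in it and 1.69 per cell, both below 2-fold. Other members did not pass the threshold on the scale of UMIs per 10000. Ptgs2 was at 9.18 and 10.4 UMIs per 10000, a ratio of 1.13 (0.908 to 1.39). Ccl6, a CC chemokine, was at 14.2 and 12.4 (0.870, 0.719 to 1.05), and Osm, oncostatin M, at 4.47 and 2.61 (0.584, 0.385 to 0.862).

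Il1b did not follow the chemokines. It was the most abundant gene of the list in mature normal neutrophils, at 84.2 (81.0 to 87.4) UMIs per 10000, and stood at 56.6 (52.4 to 60.9) in fibrosis cells. The ratio was 0.672 (0.617 to 0.731), not past 2-fold, whereas per cell it was 0.480 (0.441 to 0.522). The gene was found in 95.6% and 93.4% of thinned cells against 2.07% and 4.22% of T/NK cells (97.4% and 96.7% against 6.20% and 9.74% without thinning). Single cells had medians of 84.4 and 57.9 and reached 280.3 and 131, with overlapping ranges. The Spearman coefficient between Il1b and Cxcl2 levels of single cells was 0.0462 over 113 normal and 0.134 over 61 fibrosis cells, which share a library and its depth.

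**Figure D5:**
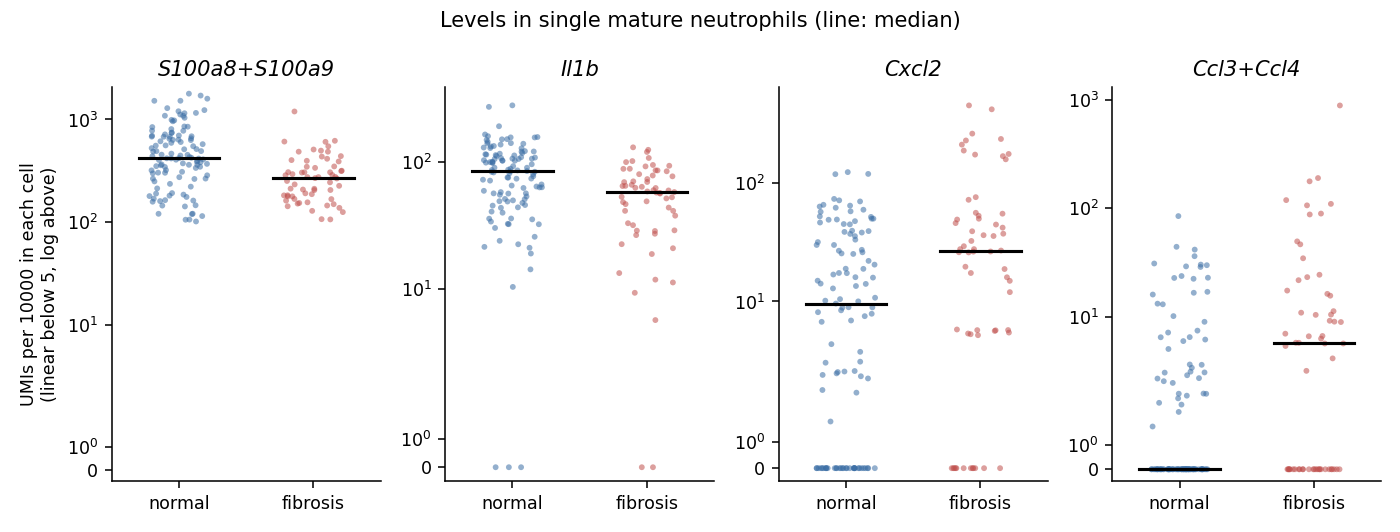
Each point is 1 mature neutrophil of the normal (blue, 113) or fibrosis (red, 61) library, with the level in UMIs per 10000 (linear below 5, log above) and the median as a line. Medians were 425 and 269 for S100a8+S100a9, 84.4 and 57.9 for Il1b, 9.60 and 26.5 for Cxcl2 and 0 and 5.63 for Ccl3+Ccl4, and the cells of the libraries overlap in each panel.

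Genes of NF-kB feedback are induced by the pathway, which some of them restrain. Of 7 over the level, 4 were higher, against 19.3% of all genes, and 0 lower, with a median ratio of 2.15. Per cell only Icam1 of the 4 stayed past 2-fold, 1 of 7 against 8.81% of all genes, and the ratio of Tnfaip3 was 1.73. Of the 4, 2 (Nfkbia and Cd14) exceeded 3 times the T/NK level, where 9.28% of genes were higher. Nfkbia, the inhibitor IkBα, stood at 13.6 (12.3 to 14.9) UMIs per 10000 in normal and 31.8 (28.7 to 35.1) in fibrosis cells, a ratio of 2.35 (2.04 to 2.70) and of 1.68 per cell. It was found in 59.3% and 88.5% of thinned cells (84.1% and 98.4% without thinning), and in 19.3% and 40.3% of thinned T/NK cells. Cd14, the lipopolysaccharide co-receptor, was at 1.67 and 3.59, a ratio of 2.15 (1.41 to 3.27) that was 1.46 without the 3 richest cells and 1.54 per cell. Tnfaip3 (A20) was at 2.36 and 5.70 and Icam1 at 0.346 and 1.39, within 3 times the fibrosis T/NK levels of 4.50 and 1.09. Nfkbiz, an atypical IkB protein, was at 6.64 and 12.0 with a ratio of 1.81 (1.45 to 2.24).

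Immediate early genes were abundant in both libraries, and 2 of 19 were past 2-fold higher, against 19.3% of all genes. Nr4a1, an orphan nuclear receptor, stood at 2.64 and 7.01 UMIs per 10000 (2.65, 1.94 to 3.63). Dusp2, a nuclear phosphatase, was at 0.912 and 2.20 (2.41, 1.37 to 4.22), under its fibrosis T/NK level of 4.88. Per cell the ratios were 1.90 (1.39 to 2.59) for Nr4a1 and 1.73 (0.983 to 3.02) for Dusp2, both below 2-fold. Dusp1 was at 45.9 and 79.8 (1.74, 1.602 to 1.89). Fos, an AP-1 subunit, was at 19.6 and 15.6 (0.799, 0.676 to 0.940), and Junb at 47.4 and 56.0 (1.18, 1.08 to 1.30).

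Of the S100 list, 0 of 5 genes over the level passed 2-fold per 10000 UMIs, against 19.3% of all genes higher and 10.2% lower. The median ratio was 0.574. S100a8 (chr3:90668978-90670035, GRCm38), a calprotectin subunit and part of the rule, stood at 240.2 (235 to 246) UMIs per 10000 in normal and 123 (117 to 129) in fibrosis mature cells, a ratio of 0.511 (0.483 to 0.540). S100a9, its partner, stood at 328 and 189, a ratio of 0.574 (0.548 to 0.6004). Per cell the ratios of S100a8 and S100a9 were 0.365 and 0.410, both past 2-fold lower, where 18.7% of all genes were lower. Single cells overlapped, with S100a8+S100a9 from 102 to 1785 in normal and from 106 to 1197 in fibrosis, both bounded from below by the rule. S100a11, not in the rule, was at 24.6 and 12.9 (0.524, 0.439 to 0.623), and S100a6 at 41.9 and 32.3 (0.770, 0.687 to 0.863).

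Of the listed genes, 6 were past 2-fold lower, Wfdc17, Hp, Ifitm2, Ifitm3 and Gapdh among them, of 231 genes in all (10.2%). Wfdc17, a WAP-domain protein, was at 16.5 (15.2 to 18.0) UMIs per 10000 in normal and 4.24 (3.16 to 5.56) in fibrosis cells, a ratio of 0.256 (0.189 to 0.341), with T/NK cells at 1.25 and 3.33. Hp, haptoglobin, which neutrophils store in granules and hepatocytes secrete, was at 14.5 and 6.27 (0.432, 0.335 to 0.551). T/NK cells had 2.93 and 0.623, so hepatocyte RNA moved with it, and its part in the result was not tested. Hp was found in 71.7% and 39.3% of thinned neutrophils (97.4% and 62.3% without thinning), against 28.4% and 5.52% of thinned T/NK cells. Ifitm2, an interferon-induced membrane protein, was at 13.7 and 4.81 (0.352, 0.263 to 0.462) with T/NK cells at 1.77 and 1.81. Slpi, the secretory leukocyte protease inhibitor, stood at 14.3 and 7.17 (0.501, 0.394 to 0.631), just short of 2-fold. Genes outside the lists that were lower, chosen after their values were seen, included Lrg1, a leucine-rich glycoprotein, at 10.4 and 5.05 (0.487, 0.365 to 0.640), and Nlrp12, a regulator of inflammation, at 2.17 and 0.815 (0.376, 0.173 to 0.733).

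Of 15 late maturation genes, 0 were higher and 1 (Wfdc17) lower, against 19.3% and 10.2% of all genes, with a median ratio of 0.891. Cxcr2, the receptor for Cxcl2 and a gene of the rule, stood at 13.4 and 11.6 UMIs per 10000 (0.862, 0.708 to 1.04), and Retnlg at 32.5 and 29.1 (0.896, 0.792 to 1.01). Il1r2, the decoy receptor for IL-1, was at 6.35 and 8.39 (1.32, 1.03 to 1.68). Hdc, which makes histamine, was at 19.9 and 21.3 (1.07, 0.921 to 1.24), and Clec4e, the receptor Mincle, at 6.54 and 10.0 (1.53, 1.22 to 1.92). Of 17 receptors of migration and adhesion, 2 were past 2-fold higher, Icam1 and Pecam1, against 19.3% of all genes. Pecam1, an adhesion molecule also of endothelium, was at 0.597 and 1.63 with T/NK cells at 0.899 and 1.52, and its ratio per cell was 1.95, below 2-fold. Cxcr4, which retains and recalls neutrophils to marrow, was at 6.04 and 6.44 (1.07, 0.810 to 1.39), and C5ar1, the complement C5a receptor, at 3.59 and 4.73 (1.32, 0.944 to 1.82).

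The other effector lists are small, and their counts stand beside 19.3% of all genes higher and 10.2% lower. Of 4 specific granule genes over the level in mature cells 1 was lower, Hp, and Lcn2 stood at 8.74 and 7.496 UMIs per 10000 (0.858, 0.670 to 1.09). Of 7 gelatinase granule and protease genes 2 were higher (Adam17 and Timp2), and neither exceeded 3 times the T/NK level or stayed past 2-fold per cell. Mmp8, neutrophil collagenase, was at 4.97 and 5.38 (1.08, 0.800 to 1.45) and Mmp9, gelatinase B, at 11.6 and 9.94 (0.857, 0.692 to 1.05). Of 7 NADPH oxidase genes 1 was higher, Cybb at 1.26 and 3.10, with T/NK cells at 0.516 and 2.85 and a ratio of 1.76 per cell. The interferon list had a median ratio of 0.925 over 15 genes, with Ifitm2 and Ifitm3 lower. Rsad2 (viperin) stood at 2.08 and 4.16 (2.002, 1.36 to 2.93) and had a ratio of 1.42 without the 3 richest cells and 1.43 per cell.

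The counts of the next lists stand beside 19.3% of all genes higher per 10000 UMIs and 8.81% higher per cell. Among 8 transcription factors of the lineage 1 was higher, Xbp1, at 1.73 and 4.07 UMIs per 10000. T/NK cells held 1.36 and 1.97 of Xbp1, and its ratio per cell was 1.68. Spi1, the myeloid factor PU.1, was at 8.14 and 4.32 (0.530, 0.387 to 0.715), and Cebpb at 26.3 and 31.9 (1.21, 1.07 to 1.37). Of 8 survival genes 2 were higher, Xiap and Cflar, neither over 3 times the T/NK level, and per cell 0 of 8 were past 2-fold higher. Mcl1, on which neutrophil survival depends, was at 24.8 and 25.3 (1.02, 0.894 to 1.17). Among 14 genes of phagocytosis and pattern recognition, 2 were higher, Cd14 and Clec4n, of which Clec4n stayed past 2-fold per cell. Clec4n, the fungal receptor Dectin-2, stood at 0.377 and 1.87 (4.97, 2.37 to 10.95), and Tyrobp, an adaptor of activating receptors, at 21.3 and 13.5 (0.635, 0.533 to 0.754).

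In the remaining lists, the genes past 2-fold stayed under 3 times the T/NK level. The tissue activation list had 5 of 12 genes higher and 1 lower, against 19.3% and 10.2% of all genes, and these calls held per cell. Ctsb, cathepsin B, stood at 5.597 and 31.4 UMIs per 10000 in neutrophils and at 4.26 and 25.9 in T/NK cells. Spp1, osteopontin, stood at 1.20 and 8.88, with T/NK cells at 8.96 and 4.44. Of its 109 fibrosis UMIs 54 lay in the cell rich in Ccl4, and without that cell Spp1 was at 4.58, a ratio of 3.83 in place of 7.43. Of 5 cell cycle genes over the level 3 were higher in fibrosis (Pcna, Tuba1b and Tubb5), with a median ratio of 2.21, and per cell only Tuba1b stayed past 2-fold. In the glycolysis list 0 of 13 were higher and 1 lower, Gapdh, at 7.70 and 3.26 with T/NK cells at 7.43 and 4.44. Of 3 stefins 1 was higher, Cstb, a cytosolic cathepsin inhibitor, at 0.535 and 2.69 with T/NK cells at 0.727 and 1.64. Azurophil genes had no member over the level in mature cells.

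Ratios ranked without regard to lists were led by genes known from other liver cells. The ranking took genes that reached 2 UMIs per 10000 in one of the libraries and were past 2-fold also without the 3 richest cells, whose log2 ratio differed by at least 1 from those in B and T/NK cells. Marco, a scavenger receptor of Kupffer cells, came first, at 0.0943 and 5.13 in normal and fibrosis mature neutrophils. T/NK cells held 0.125 and 2.15 of it and macrophages 3.19 and 5.04. Mmp12 and Gpnmb, both macrophage genes, followed, at 0 UMIs in normal cells and 2.77 and 2.44 per 10000 in fibrosis cells. T/NK cells had 0.0178 and 2.74 of Mmp12 and 0.0267 and 4.10 of Gpnmb. Macrophages had 0.464 and 5.19 of Mmp12 and 0.130 and 14.4 of Gpnmb. Hsp90aa1, a heat shock protein, was at 1.82 and 11.1 (6.08, 4.44 to 8.41), with T/NK cells at 7.20 and 8.75. One cell held 69 of its 136 fibrosis UMIs, and without the 3 richest cells of each library the ratio was 2.73. At the lower end stood Car3, Mat1a, Hpd and Apoc1, all made by hepatocytes. Apoc1, an apolipoprotein, was at 35.1 and 1.39 in neutrophils and 23.2 and 2.06 in T/NK cells. Uqcrq and Cox7b, subunits of the respiratory chain, were at 5.35 and 1.06 and at 2.33 and 0.489. The part of RNA from other cells in these ratios was not tested.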

How the data were processed

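The authors prepared liver non-parenchymal cells by collagenase perfusion and a density gradient, made 10x 3′ libraries and deposited 1 table of UMI counts per gene and cell for each library, which per the submitters' notes came from Cell Ranger 3.0.1. The methods state that doublets were removed with Scrublet. Scrublet run on the tables (expected rate 0.06, scanpy 1.11.5) called 1 cell per library, too few to serve as a caller, so no cell was removed. Of the neutrophils, 3 normal and 0 fibrosis cells were in the top 5% of scores.

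Cells with under 10% of UMIs in mitochondrial genes and over 200 genes were kept, 7471 of 8130 normal and 6132 of 6437 fibrosis cells, from 44062632 and 53288463 UMIs. A further 4 and 2 cells met the neutrophil rule but not the mitochondrial limit. The neutrophils, the gene lists and the comparisons were chosen with earlier results of these data known.

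The tables give raw counts without normalization. Levels are UMIs summed over the cells of a group per 10000 UMIs, with exact Poisson 95% intervals. Ratios carry exact conditional intervals and shares exact binomial (Clopper-Pearson) intervals (scipy 1.17.1, numpy 2.4.6, pandas 2.3.3, Python 3.11.15). Only the ratio intervals were tested on simulated data, with counts drawn from a pooled profile, so differences between single cells were not covered. A gene was tested at 1 UMI per 10000 or more in either group and called past 2-fold when its ratio was at least 2 or at most 0.5 and the interval excluded 1. A count of 0 was given a limit of 3 counts. Of 261 genes in 18 lists, 259 were in the tables. Named genes were those lists, and the 10 highest and 10 lowest ratios between libraries, the 10 highest over other cells and the 10 highest and lowest between stages. Shares of cells with a UMI were thinned to 1000 UMIs per cell, which left out 1 normal T/NK cell and no mature neutrophil. T/NK cells (Cd3d, Cd3e, Cd3g, Nkg7 or Klrb1c, and no Cd79a, Cd79b or Ms4a1) and B cells (the reverse), each with at least 3 UMIs of their genes, served as background and carried macrophage RNA in fibrosis. Macrophages were taken by Clec4f, Vsig4, Cd5l and C1qa, and monocytes by Ccr2, Ly6c2, F13a1 and Csf1r. The cells taken as monocytes were mixed, with dendritic cell markers at 121 and 61.2 UMIs per 10000 in the normal and fibrosis library. Their monocyte markers stood at 19.9 and 34.7. Per-cell scaling, other limits on S100, mitochondrial share and level, and leaving out single cells were tried as alternatives. Some listed genes are not reported here by name.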

Additional observations from a re-analysis of the deposited data

How the results depend on the processing

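The share of neutrophils among cells moved with the limits, to 4.91% normal and 4.05% fibrosis at a mitochondrial limit of 5%, where far fewer cells of all kinds were kept, to 1.30% and 0.848% with S100a8+S100a9 from 200 per 10000, to 1.85% and 1.63% from 50 and to 2.04% and 1.96% from 20, which was chosen after seeing the data. The fibrosis neutrophils had 352 genes past 2-fold higher and 243 lower (16.1% and 11.1% of 2192). These counts were 171 and 380 per cell, 31 and 59 at a level of at least 5, 798 and 470 with no level filter and 36 and 19 at 3 or more times the T/NK level. In mature cells (439 and 231) they were 200 and 424 per cell, 36 and 20 at 3 or more times the T/NK level, 25 and 16 with the mean of both libraries at that limit, 17 and 9 with each library at it, 333 and 308 without the 3 richest cells of each gene and 451 and 242 without the cell of each library richest in macrophage markers. With S100a8+S100a9 from 20 they were 426 and 238, of which 257 and 179 were shared with the first count. In normal immature against mature cells, 453 higher and 448 lower became 208 and 175 without the deepest cell, which held 20825 of their 43691 UMIs. Ratios were above 1 in all neutrophils and below 1 in mature cells for Ngp (0.259), which set the stages, Cd177 (0.162) and Ifitm6 (0.925), on 20 and 2, 16 and 1 and 42 and 15 UMIs, and the intervals of the mature ratios all include 1, so no direction is read from them. Of 29 listed genes higher and 10 lower in all neutrophils, 17 and 10 kept their call per cell, 26 and 6 without the 3 richest cells and 16 and 8 with S100a8+S100a9 from 20. A limit of fewer than 3 UMIs of other lineages left 0 mature neutrophils and gave no value. No paired analysis was possible because each condition had 1 library. With 122734 UMIs in fibrosis mature cells, small differences of genes near 1 UMI per 10000 were not detectable at this depth.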

Other observations

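Genes outside the lists, chosen after their values were seen, also differed in mature neutrophils at levels at least 3 times those of T/NK cells. Basp1, a membrane protein that binds calmodulin, stood at 1.38 and 6.36 UMIs per 10000 in normal and fibrosis cells (4.59, 3.14 to 6.81). Marcksl1, an actin-binding protein, was at 3.21 and 8.96 (2.79, 2.12 to 3.70), and Plek, pleckstrin, at 5.69 and 12.4 (2.18, 1.74 to 2.72). Per cell the ratio of Basp1 was 3.28, while those of Marcksl1 and Plek were 1.998 and 1.56, below 2-fold. Irak2, a kinase of Toll-like receptor signalling, was at 0.189 and 1.71 (9.07, 3.54 to 27.5), with UMIs in 6 and 12 cells. Flcn, which encodes folliculin, had 10 and 14 UMIs (3.63, 1.499 to 9.13), Fnip1 36 and 30 (2.16, 1.29 to 3.61) and Fnip2 5 and 13 (6.74, 2.25 to 24.1). The ratio of Fnip1 was 1.66 without the 3 richest cells of each library and 1.54 (0.918 to 2.58) per cell. Ifit1bl2 had 8 and 30 UMIs, of which 83.3% in fibrosis lay in 1 cell, and a ratio of 9.72 that was 0.881 without the 3 richest cells.

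Correlations across single mature cells are given as descriptions. The Spearman coefficient between Cxcl2 and Ccl4 levels was 0.0594 over 113 normal and 0.525 over 61 fibrosis cells, and between Ccl3 and Ccl4 it was 0.186 and 0.516. Retnlg and Ccl3 had coefficients of -0.268 and -0.450, and Retnlg and S100a8 of 0.484 and 0.400. The cells of a library share its preparation and depth.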
